A study of Mus musculus with 28 samples.

Results

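The genes described here encode the BCL2 family, the proteins that decide whether the outer membrane of the mitochondrion is opened in apoptosis. They were found as the probe sets (the array's measuring units for a transcript) whose platform annotation names exactly 1 gene out of Bcl2, Bcl2l1, Mcl1, Bax, Bak1, Bid, Bad, Bcl2l11, Bbc3 and Pmaip1. This gave 24 of the 22690 probe sets on the array, for 9 of the 10 genes, out of 12393 genes that a probe set names alone. Mcl1 had 6, Bcl2l11 5, Bcl2l1 4, Bak1, Bid and Bad 2 each, and Bcl2, Bbc3 and Pmaip1 1 each. No probe set named Bax alone, so Bax, an effector, was not analysed here.

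The family holds 3 kinds of protein. The guardians BCL2, BCL-XL (from Bcl2l1) and MCL1 keep cells alive by binding the effectors BAK (from Bak1) and BAX, which otherwise form pores that release cytochrome c and start the caspases. The BH3-only proteins BIM (from Bcl2l11), PUMA (from Bbc3), NOXA (from Pmaip1), BID and BAD carry death signals: they occupy the guardians, and some of them also switch on the effectors. In the mouse, Mcl1 is known to be needed for the survival of haematopoietic stem cells and many progenitors, and NOXA is known to bind MCL1.

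The data are 28 Affymetrix arrays of RNA from mouse bone marrow sorts, each from about 10000 cells per the labels. The series' title places the study in leukaemia made by the fusion protein MLL-AF9. The arrays form 2 experiments whose RNA was amplified on different days and which the design text calls noncomparable, so no level was set against a level of the other experiment. In the sorted experiment, 6 arrays held leukaemic cells taken by the surface markers of granulocyte-macrophage progenitors (L-GMP: lineage-negative, Sca-negative, Kit-positive, Fc receptor-positive, CD34-positive). The normal groups were a stem cell-enriched fraction (HSC: lineage-negative, Sca-positive, Kit-positive, 5 arrays), megakaryocyte-erythroid progenitors (MEP: Fc receptor-negative, CD34-negative, 3 arrays), common myeloid progenitors (CMP, 4 arrays) and granulocyte-macrophage progenitors (GMP, 4 arrays). The labels give CMP as Fc receptor-positive with low CD34 and GMP as Fc receptor-positive with high CD34. In the transduced experiment, 3 arrays held GMP expressing MLL-AF9 and 3 held GMP expressing the green fluorescent protein GFP. The labels give no strain, age, promoter or vector for any group, do not say how many mice a sample pooled, and do not state that L-GMP arrays came from separate leukaemias. They also do not state that replicates were separate animals, so a p-value here sets a difference against variation among samples that could be technical alone.

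Values are log2 intensities, scaled within each experiment and held at a floor of 5.27 in the sorted and 6.29 in the transduced experiment. Levels of different probe sets were not compared, since each binds its target with its own strength. In bulk samples of this kind, fewer cells of a type and less RNA per cell cannot be told apart. Defining markers fitted the labels of HSC, MEP and GMP. Procr and Hlf, genes of stem cells, averaged 9.21 and 11.1 in HSC. Gata1 and Klf1, transcription factors of the erythroid lineage, averaged 9.46 and 10.5 in MEP, and Elane, a neutrophil elastase, 12.6 in GMP. The summed linear level of 4 stem cell genes was 4278 to 4514 in HSC and 1467 to 1831 in CMP, the next group. For 7 erythroid and megakaryocyte genes it was 12226 to 18215 in MEP and 5011 to 12144 in CMP. The sum of 7 granulocyte-macrophage genes was 31023.5 to 35024.5 in GMP, but also 18695.3 to 27930.5 in L-GMP and 14090.2 to 16450 in CMP. The label of CMP went against its markers, since the Fc receptor gene Fcgr3 averaged 5.47 in CMP, with 2 of 4 arrays at the floor, and 9.51 in GMP, while Cd34 averaged 9.57 in CMP and 8.94 in GMP. Late neutrophil markers summed to 2372 to 10067 in HSC, 2722 to 13253 in L-GMP and 1523 to 5345 in MEP. Their sums were 1054 to 4662 in CMP and 1055 to 5008 in GMP, and their part in other levels was not tested. Replicate 1 of HSC, of CMP and of GMP stood apart from the other replicates of their groups in 12 immediate early genes, which cells switch on within minutes of a stimulus. The mean level of these 12 genes was 8.26 in HSC replicate 1, 6.71 in CMP replicate 1 and 6.50 in GMP replicate 1, against 10.1 to 11.3, 9.91 to 9.94 and 8.65 to 9.17 in the others of the same groups. It was 6.64 to 7.99 in L-GMP and 9.44 to 10.1 in MEP. Calls that changed without these 3 arrays are given after the Mcl1 results.

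A probe set was tested when it exceeded the median of its experiment (6.75 in the sorted and 8.01 in the transduced experiment) on at least 3 arrays. Of the 24 probe sets 19 passed in the sorted experiment, and all 9 genes kept at least 1. The 5 below the filter were 1426050_at of Bcl2l1 (at the floor on 17 of 22 arrays), 1425716_s_at of Bak1 (20 of 22), 1426334_a_at and 1435449_at of Bcl2l11 (22 of 22 each) and 1456006_at of Bcl2l11, which ran between 5.77 and 7.20. Pmaip1 passed only through the 6 L-GMP arrays and 1 GMP array, and Bcl2 only through the 4 CMP arrays, so a difference between groups was built into their being tested. In the transduced experiment 19 passed as well, among them 1435449_at of Bcl2l11, while Bcl2 did not.

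**Figure D1:**
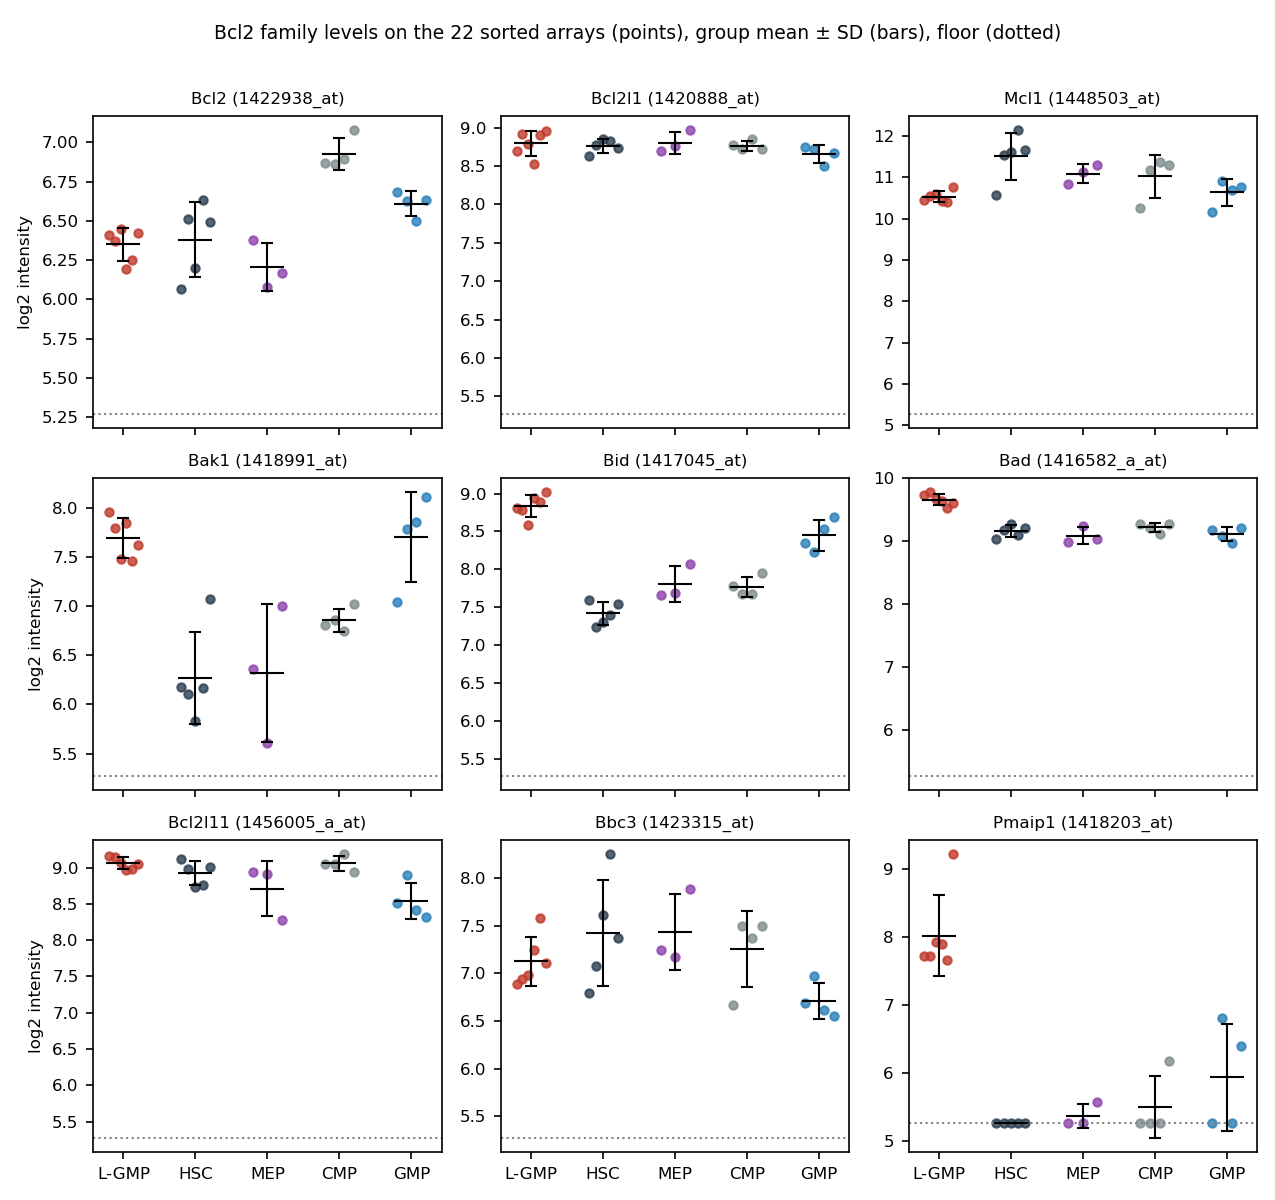
Log2 intensity of the brightest tested probe set of each of 9 BCL2 family genes on the 22 sorted arrays. Points are arrays, bars are group means ± SD, and the dotted line is the floor of 5.27. Pmaip1 stood at or near the floor in HSC, MEP and CMP and between 7.66 and 9.22 in L-GMP, Bid was lowest in HSC, and Mcl1 spread widely within HSC and CMP.

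In L-GMP against normal GMP, the BH3-only genes Pmaip1, Bad (both probe sets) and Bcl2l11 (both tested probe sets) were higher, and so was 1 of 2 probe sets of Bid. The BH3-only gene Bbc3, the guardians Mcl1, Bcl2 and Bcl2l1 and the effector Bak1 gave no call. Of the 19 probe sets 6 were higher and 0 lower in L-GMP against GMP (limma, adjusted p under 0.05 over all 12233 probe sets tested). Over all probe sets 32.8% were called in either direction, 14.3% higher and 18.5% lower, so the share of the family called, 31.6%, was near the background, and its split was 6 to 0. Of these 6, 1 was Pmaip1, whose passing of the filter rested on its level in L-GMP. The median log2 change of the 19 was 0.19, and that of all probe sets 0.00.

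Against HSC, 7 of the 19 were higher in L-GMP, in BH3-only genes and Bak1, and 5 were lower, all of Mcl1 (63.2% called, against 47.3% of all probe sets, 23.5% higher and 23.8% lower). Against CMP, 6 were higher and 1, of Bcl2, was lower (36.8% called, against 39.1% of all, 17.7% higher and 21.4% lower). Against MEP, 7 were higher and 1, of Bcl2l1, was lower (42.1% called, against 44.6% of all, 21.7% higher and 23.0% lower). The median log2 change of the 19 was 0.03 against HSC, 0.03 against CMP and 0.17 against MEP, beside 0.00, -0.01 and -0.05 for all probe sets. These comparisons share the 6 L-GMP arrays, and each count of higher probe sets includes Pmaip1.

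**Figure D2:**
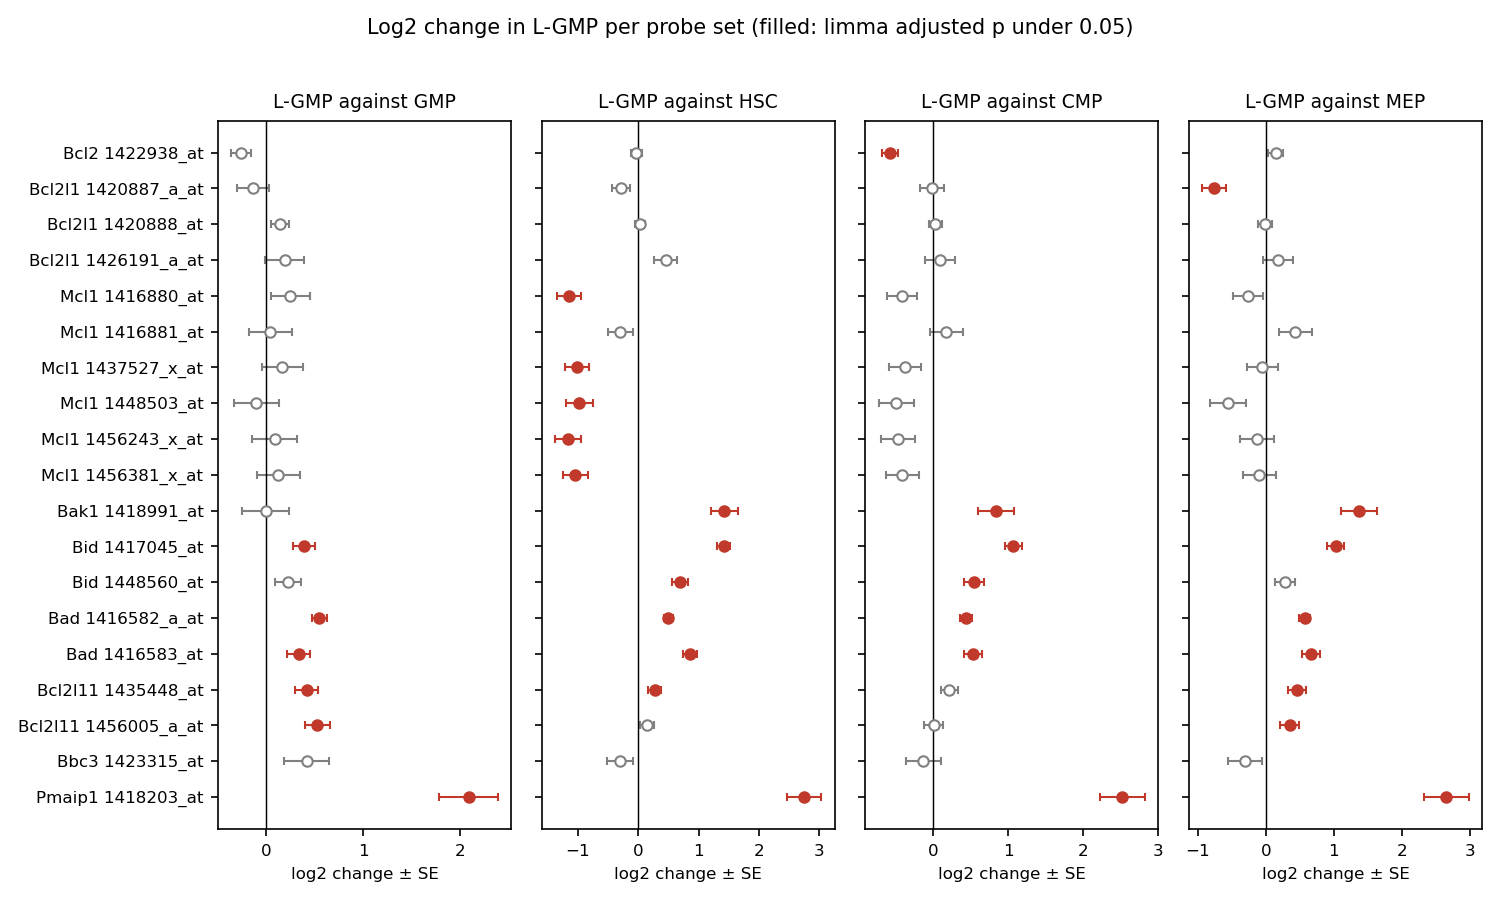
Log2 change ± SE of 19 BCL2 family probe sets in L-GMP against GMP, HSC, CMP and MEP, with filled points where limma's adjusted p was under 0.05. Pmaip1 lies furthest to the right in each panel, with log2 changes between 2.08 and 2.75, and 5 Mcl1 probe sets lie between -1.16 and -0.97 in the panel against HSC.

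Pmaip1, which encodes the BH3-only protein NOXA, had the widest spread of group means in the family. Its probe set 1418203_at read 7.66 at the lowest, 7.81 at the median and 9.22 at the highest of the L-GMP arrays. In HSC all 5 arrays were at the floor, in MEP the arrays read 5.27, 5.27 and 5.57, in CMP 5.27, 5.27, 5.27 and 6.18, and in GMP 5.27, 6.81, 5.27 and 6.39. Every L-GMP array lay above every normal array, and replicate 6 of L-GMP stood above the other 5.

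L-GMP averaged 8.02 ± 0.59 (SD, n = 6) and GMP 5.94 ± 0.79 (SD, n = 4). The log2 change was 2.08 ± 0.30 (SE), or 4.24-fold, with an adjusted p of 1.60e-05, and as 2 of 4 GMP arrays were at the floor it depends on where the floor is set. Pmaip1 was at least 6.73-fold higher in L-GMP than in HSC (adjusted p = 4.75e-08), at least 5.75-fold higher than in CMP (adjusted p = 6.77e-07) and at least 6.28-fold higher than in MEP (adjusted p = 9.01e-07). As it passed the filter through the 6 L-GMP arrays and 1 GMP array, these adjusted p carry that selection and are no independent support. With no filter it stayed called against each normal group. With the floor at the 50th percentile in place of the 25th, the log2 change against GMP was 1.26, and with the floor at the 10th percentile 2.47. Without L-GMP replicate 6 it was 1.84 (adjusted p = 1.09e-05). No difference among the normal groups was called.

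Bid encodes a BH3-only protein that is cut by caspase 8 and carries death receptor signals to the mitochondrion. Probe set 1417045_at read 8.58 at the lowest, 8.85 at the median and 9.02 at the highest in L-GMP, and 8.34, 8.22, 8.53 and 8.69 in GMP. In HSC the 5 arrays read 7.60, 7.24, 7.31, 7.40 and 7.54. MEP arrays read 7.66, 7.68 and 8.07, and CMP arrays 7.78, 7.67, 7.67 and 7.95. L-GMP and GMP formed the high end, with 1 GMP array above the lowest L-GMP array, and HSC the low end.

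By this probe set Bid was higher in L-GMP than in every normal group, by 0.39 ± 0.11 on the log2 scale against GMP (adjusted p = 0.0115), 1.42 ± 0.11 against HSC (adjusted p = 3.71e-10), 1.07 ± 0.11 against CMP (adjusted p = 1.35e-07) and 1.03 ± 0.12 against MEP (adjusted p = 6.05e-07). The call against GMP was lost without GMP replicate 2 (adjusted p = 0.0595). Among normal cells it was lower in HSC than in GMP (-1.03 ± 0.12, adjusted p = 5.30e-07), in CMP than in GMP (-0.68 ± 0.12, adjusted p = 0.000476) and in MEP than in GMP (-0.64 ± 0.13, adjusted p = 0.000943). The difference between HSC and MEP (-0.39, adjusted p = 0.0243) was lost without HSC replicate 2 (adjusted p = 0.0602) or MEP replicate 3 (adjusted p = 0.211). In the order L-GMP, GMP, MEP, CMP, HSC the neighbours MEP and CMP (adjusted p = 0.905) and CMP and HSC (adjusted p = 0.0562) were not called.

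The other Bid probe set, 1448560_at, gave the same order of group means with smaller steps, and correlated with the first at r = 0.825 over the 22 arrays, which share their amplification and scaling. It averaged 7.12 ± 0.28 in L-GMP, 6.43 ± 0.17 in HSC, 6.84 ± 0.26 in MEP, 6.57 ± 0.15 in CMP and 6.90 ± 0.10 in GMP (SD). It was called higher in L-GMP than in HSC (0.69 ± 0.13, adjusted p = 0.000102) and CMP (0.55 ± 0.13, adjusted p = 0.00240), but not against GMP (0.22, adjusted p = 0.234) or MEP (0.28, adjusted p = 0.129).

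Bad encodes a BH3-only protein that growth factor signals hold inactive by phosphorylation. Probe set 1416582_a_at read 9.53 at the lowest, 9.66 at the median and 9.77 at the highest in L-GMP. HSC arrays read 9.03, 9.18, 9.28, 9.09 and 9.21, MEP arrays 8.99, 9.25 and 9.03, CMP arrays 9.27, 9.21, 9.11 and 9.27, and GMP arrays 9.18, 9.08, 8.97 and 9.21. All 6 L-GMP arrays lay above all 16 normal arrays, and the 4 normal groups overlapped one another. The step was small but close to constant. It was 0.55 ± 0.08 (SE) against GMP (1.46-fold, adjusted p = 1.86e-05), 0.50 ± 0.07 against HSC (adjusted p = 9.16e-06), 0.44 ± 0.08 against CMP (adjusted p = 0.000123) and 0.57 ± 0.09 against MEP (adjusted p = 1.44e-05).

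By probe set 1416583_at Bad averaged 8.17 ± 0.18 in L-GMP, 7.31 ± 0.20 in HSC, 7.51 ± 0.18 in MEP, 7.64 ± 0.14 in CMP and 7.84 ± 0.22 in GMP (SD). L-GMP was higher than HSC (0.86 ± 0.11, adjusted p = 2.01e-06), CMP (0.53 ± 0.12, adjusted p = 0.00137) and MEP (0.66 ± 0.13, adjusted p = 0.000325). The difference from GMP was 0.33 ± 0.12 with an adjusted p of 0.0417, and leaving out any 1 of 7 arrays ended that call (adjusted p between 0.0578 and 0.177): GMP replicate 1, 2 or 3, or L-GMP replicate 1, 2, 3 or 4. This probe set was also lower in HSC than in GMP (-0.53 ± 0.13, adjusted p = 0.00200), which the first did not show (0.04, adjusted p = 0.717).

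Bcl2l11 encodes BIM, a BH3-only protein that binds all the guardians and limits the number of blood cells in mice. By probe set 1456005_a_at it read 8.97 at the lowest, 9.06 at the median and 9.17 at the highest in L-GMP, and 8.51, 8.90, 8.42 and 8.32 in GMP. HSC arrays read 9.12, 8.98, 8.74, 8.76 and 9.01, MEP arrays 8.94, 8.92 and 8.28, and CMP arrays 9.05, 9.05, 9.18 and 8.94. GMP held the lowest group mean, and all its arrays lay below all L-GMP arrays.

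L-GMP was higher than GMP by 0.52 ± 0.13 by this probe set (adjusted p = 0.00306) and by 0.42 ± 0.12 by probe set 1435448_at (adjusted p = 0.00850), which averaged 7.50 ± 0.19 in L-GMP and 7.08 ± 0.13 in GMP (SD). Probe set 1435448_at was also higher in L-GMP than in MEP (0.46 ± 0.13, adjusted p = 0.00544). Other calls of this gene were fragile. Leaving out any 1 of 10 arrays ended the call of 1456005_a_at against MEP (0.35, adjusted p = 0.0447, then between 0.0505 and 0.452), and any 1 of 15 the call of 1435448_at against HSC (0.27, adjusted p = 0.0465, then between 0.0505 and 0.130). With the 3'/5' ratio, a measure of RNA length, as a covariate the first was 0.19 (adjusted p = 0.311) and the second 0.16 (adjusted p = 0.302). By 1456005_a_at HSC was higher than GMP (0.38, adjusted p = 0.0260), a call that any 1 of 6 arrays ended (HSC replicate 1, 2 or 5, GMP replicate 1, 3 or 4; adjusted p between 0.0518 and 0.101). By the same probe set CMP was higher than GMP (0.52, adjusted p = 0.0129), a call that ended without GMP replicate 4 (adjusted p = 0.0559).

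Bbc3, which encodes PUMA, a BH3-only protein and a well-known target of p53, was not called over the 5 groups (F test, adjusted p = 0.0823). Probe set 1423315_at read 6.89 at the lowest, 7.04 at the median and 7.58 at the highest in L-GMP. HSC arrays read 6.79, 7.08, 7.61, 8.25 and 7.37, MEP arrays 7.24, 7.16 and 7.89, CMP arrays 6.66, 7.49, 7.37 and 7.49, and GMP arrays 6.69, 6.97, 6.61 and 6.55. Values of HSC spread over more than a log2 unit, and L-GMP overlapped every normal group. HSC was called higher than GMP (0.71 ± 0.24, adjusted p = 0.0214), which ended without HSC replicate 4 (adjusted p = 0.0670), GMP replicate 3 (adjusted p = 0.0522) or GMP replicate 4 (adjusted p = 0.0598), and with the 3'/5' ratio as a covariate (adjusted p = 0.0529).

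Bak1, the effector that could be measured, was high in the granulocyte-macrophage groups, leukaemic and normal alike. Probe set 1418991_at read 7.46 at the lowest, 7.71 at the median and 7.96 at the highest in L-GMP, and 7.05, 7.79, 7.86 and 8.11 in GMP. HSC arrays read 6.17, 6.10, 5.83, 6.17 and 7.07, MEP arrays 6.36, 5.60 and 7.01, and CMP arrays 6.81, 6.85, 6.75 and 7.02. No array of HSC, MEP or CMP reached the lowest L-GMP array, and the ranges of L-GMP and GMP overlapped.

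L-GMP was higher than HSC by 1.43 ± 0.23 (2.69-fold, adjusted p = 2.15e-05), than MEP by 1.37 ± 0.27 (adjusted p = 0.000221) and than CMP by 0.84 ± 0.24 (adjusted p = 0.00877), while its difference from GMP was -0.01 ± 0.24 (adjusted p = 0.994). Among normal groups Bak1 was lower in HSC than in GMP (-1.43 ± 0.25, adjusted p = 0.000106) and in MEP than in GMP (-1.38 ± 0.29, adjusted p = 0.000888). The call between CMP and GMP (-0.84, adjusted p = 0.0332) ended without any 1 of CMP replicate 1, 2 or 3 or GMP replicate 2, 3 or 4 (adjusted p between 0.0701 and 0.120), and the array GMP replicate 1 read lowest of its group. The order of the BH3-only gene Bid and of Bak1 was alike at its ends: over the 22 arrays their levels correlated at r = 0.865, and at r = 0.570 after group means were removed.

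Mcl1, the guardian best known from stem cells, was highest in HSC by each of its 6 probe sets. Probe set 1416880_at read 9.10 at the lowest, 9.59 at the median and 9.86 at the highest in L-GMP, and 9.95, 10.82, 10.70, 11.28 and 10.74 in HSC. MEP arrays read 9.82, 10.13 and 9.50, CMP arrays 9.62, 10.22, 10.20 and 9.82, and GMP arrays 8.98, 9.48, 9.55 and 9.21. Every HSC array lay above every L-GMP and every GMP array, although HSC replicate 1 came close to the highest L-GMP array.

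In L-GMP Mcl1 fell by 1.15 ± 0.19 on the log2 scale relative to HSC by this probe set (adjusted p = 3.79e-05), and 5 of the 6 probe sets were called, with log2 changes between -1.16 and -0.97. The same 5 were higher in HSC than in GMP, by 1.39 ± 0.21 for 1416880_at (adjusted p = 2.06e-05) and by 0.87 ± 0.25 for 1448503_at (adjusted p = 0.00687). The 6th, 1416881_at, averaged 7.68 ± 0.28 in L-GMP and 7.97 ± 0.61 in HSC (SD) and was called in neither comparison (adjusted p = 0.261 for L-GMP against HSC and 0.262 for HSC against GMP). It correlated with the other 5 at r between 0.508 and 0.667, and those 5 with one another at r between 0.838 and 0.997. Against GMP no Mcl1 probe set was called in L-GMP, with log2 changes between -0.10 and 0.25.

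HSC was also higher than MEP by 5 Mcl1 probe sets, here all but 1448503_at, which was called without replicate 1 of HSC, CMP and GMP (0.65, adjusted p = 0.00162). The largest log2 difference was 1.03 ± 0.26 for 1456243_x_at (adjusted p = 0.00401), and the call of 1437527_x_at was 0.97 ± 0.24 (adjusted p = 0.00318). The calls of 1416880_at (0.88, adjusted p = 0.00521) and 1456381_x_at (0.95, adjusted p = 0.00591) ended without MEP replicate 3 (adjusted p = 0.0509 and 0.0547). That of 1416881_at (0.73, adjusted p = 0.0287) ended without any 1 of HSC replicate 4 or 5 or the 3 MEP arrays (adjusted p between 0.0654 and 0.0756). In the count over the family, HSC against MEP had 5 higher, all of Mcl1, and 2 lower, both of Bid. That was 36.8%, against 32.7% of all probe sets. Without MEP replicate 3 the family count was 2, and the calls over all probe sets were 2789, in place of 3996.

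Mcl1 levels moved with the immediate early genes named above. Over the 22 arrays probe set 1448503_at correlated with the mean of the 12 genes at r = 0.942, and at r = 0.924 after group means were removed, which describes these arrays only, since they share amplification and scaling. The other Mcl1 probe sets gave r between 0.355 and 0.762, Bbc3 gave 0.644, and all other tested members lay between -0.715 and 0.527. The summed level of all 12 genes ran from 1778 to 6044 in L-GMP, with 4 of them at the floor throughout L-GMP. It ran from 8547 to 40027 in HSC, 16940 to 22802 in MEP, 1720 to 21735 in CMP and 1546 to 13733 in GMP. The part of these genes' shift in the Mcl1 result was not tested.

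**Figure D3:**
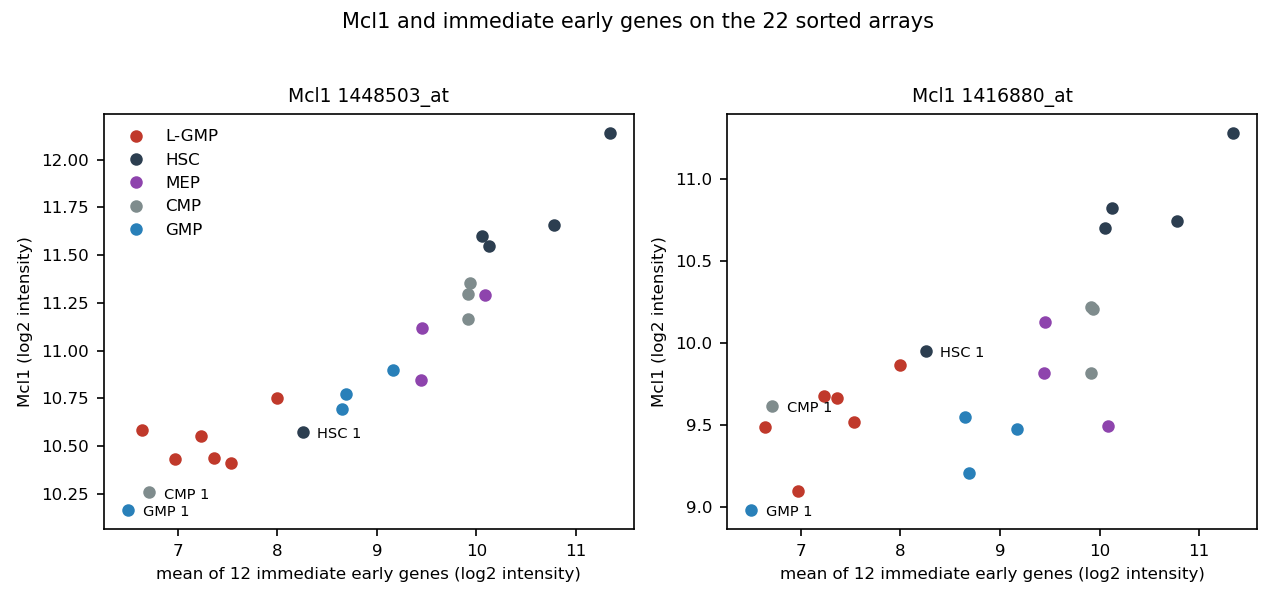
Log2 intensity of 2 Mcl1 probe sets against the mean log2 intensity of 12 immediate early genes on the 22 sorted arrays, coloured by group, with replicate 1 of HSC, CMP and GMP named. Mcl1 1448503_at follows the immediate early mean closely (r = 0.942), 1416880_at less so (r = 0.762), and the 3 named arrays lie at the lower left of their groups.

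Without replicate 1 of HSC, CMP and GMP, the arrays with the lowest immediate early means of their groups, more Mcl1 probe sets were called. L-GMP then differed from CMP by 5 Mcl1 probe sets, with -0.74 ± 0.13 for 1448503_at (adjusted p = 0.000182) and between -0.63 and -0.53 for the other 4. On all arrays none of these was called. The count of family probe sets called in L-GMP against CMP was then 12, in place of 7. Over all probe sets 4275 of 12115 were called there, in place of 4788 of 12233. For HSC against CMP the family count was 5, in place of 2, and the count over all probe sets 1144, in place of 1565. Of those 5, 4 were higher, and 3 of these were newly called Mcl1 probe sets. Mcl1 1448503_at was then also lower in L-GMP than in MEP (-0.56, adjusted p = 0.00190) and higher in CMP than in GMP (0.48, adjusted p = 0.0437). Leaving out these arrays also widened the gap in immediate early genes. Their mean was 9.91 to 9.94 on the remaining CMP arrays, against 6.64 to 7.99 in L-GMP. The part of this gap in the new Mcl1 calls was not tested.

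Outside Mcl1, leaving out these 3 arrays added 3 calls. Bcl2l1 1420887_a_at was lower in L-GMP than in HSC (-0.39, adjusted p = 0.0346), Bad 1416583_at lower in MEP than in GMP (-0.43, adjusted p = 0.0289), and Bbc3 higher in MEP than in GMP (0.72, adjusted p = 0.0430). It ended the call of Bad 1416583_at in L-GMP against GMP (0.23, adjusted p = 0.166). It also ended those of Bcl2l11 1456005_a_at in L-GMP against MEP (adjusted p = 0.0582), in HSC against GMP (adjusted p = 0.115) and in CMP against GMP (adjusted p = 0.0591).

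The sequence before the start of Mcl1 and Bbc3, the members that moved most closely with the immediate early list, is shown beside that of Nr4a1. Nr4a1 encodes an orphan nuclear receptor and was 1 of the 3 genes most like Mcl1 by probe set 1448503_at. Each run holds 250 bases up to the transcription start, from RefSeq on GRCm38.p6, plus strand, with capitals marking the cAMP response element half-site TGACG on either strand (read on the other strand as CGTCA).
Mcl1, chr3:95658471-95658720: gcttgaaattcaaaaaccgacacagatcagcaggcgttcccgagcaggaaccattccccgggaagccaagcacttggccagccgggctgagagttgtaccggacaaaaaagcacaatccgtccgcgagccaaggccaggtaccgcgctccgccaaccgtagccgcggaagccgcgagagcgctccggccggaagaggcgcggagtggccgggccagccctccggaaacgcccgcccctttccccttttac
Bbc3, chr7:16309333-16309582: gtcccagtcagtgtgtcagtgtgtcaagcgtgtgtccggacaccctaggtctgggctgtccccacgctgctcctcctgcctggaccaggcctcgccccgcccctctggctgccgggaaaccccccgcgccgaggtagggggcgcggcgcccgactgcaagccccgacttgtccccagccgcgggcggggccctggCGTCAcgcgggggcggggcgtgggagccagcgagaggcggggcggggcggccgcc
Nr4a1, chr15:101266596-101266845: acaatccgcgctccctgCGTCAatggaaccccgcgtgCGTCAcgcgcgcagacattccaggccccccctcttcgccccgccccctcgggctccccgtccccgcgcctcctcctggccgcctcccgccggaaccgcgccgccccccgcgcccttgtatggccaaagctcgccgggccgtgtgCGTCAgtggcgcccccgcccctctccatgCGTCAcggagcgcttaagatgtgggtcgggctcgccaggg
The half-site occurred 0 times before Mcl1, 1 time in this 1 of the 3 Bbc3 start windows, and 4 times before Nr4a1. The Bbc3 window shown was picked because it held the site, which the other Bbc3 windows lacked. The half-site lay in 17.8% of the 32851 mouse windows of this length, in those of 2 of 9 member genes with an entry (Bcl2 and Bbc3), and in those of 6 of 10 genes of the immediate early list. A gene was counted when any of its windows held the site, so these gene counts and the share of windows have unlike units. The full element TGACGTCA was in 1.55% of windows and the serum response CArG box in 1.47%, and neither was before any member. Motifs were picked after the levels were seen, and a match is a description of these letters only.

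Bcl2, the founding guardian, was highest in CMP. Probe set 1422938_at read 6.19 at the lowest, 6.39 at the median and 6.45 at the highest in L-GMP. HSC arrays read 6.07, 6.51, 6.20, 6.63 and 6.49, MEP arrays 6.38, 6.08 and 6.16, CMP arrays 6.87, 6.86, 6.90 and 7.08, and GMP arrays 6.68, 6.62, 6.50 and 6.63. All CMP arrays lay above all others, and all values were within 2 log2 units of the floor.

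Bcl2 in L-GMP fell by 0.58 ± 0.10 relative to CMP (adjusted p = 0.000111), and its difference from GMP was -0.26 ± 0.10 (adjusted p = 0.0605), although those groups did not overlap. It was lower in HSC than in CMP (-0.55 ± 0.11, adjusted p = 0.00159) and in MEP than in CMP (-0.72 ± 0.12, adjusted p = 0.000185). As Bcl2 passed the filter only through the CMP arrays, these calls against CMP carry that selection. The sizes depend on the floor: with it at the 50th percentile the log2 change against CMP was -0.18 for L-GMP, HSC and MEP alike, and all 3 stayed called. The call between MEP and GMP (-0.40, adjusted p = 0.0174) ended under that floor, where the change was 0 (adjusted p = 1), and without MEP replicate 2 (adjusted p = 0.0935) or MEP replicate 3 (adjusted p = 0.0521).

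Bcl2l1, the gene of BCL-XL, known as the guardian of maturing red cells, was called by 1 of 3 tested probe sets. By 1420887_a_at, L-GMP arrays ran from 6.22 over a median of 6.59 to 7.07. MEP arrays read 7.39, 7.38 and 7.46, HSC arrays 6.52, 7.13, 6.84, 7.35 and 6.89, CMP arrays 6.34, 6.63, 6.88 and 6.84, and GMP arrays 6.94, 6.85, 6.62 and 6.77. All MEP arrays lay above all others.

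L-GMP was lower than MEP by this probe set (-0.76 ± 0.18, adjusted p = 0.00144), and MEP was higher than CMP (0.74 ± 0.19, adjusted p = 0.00986). MEP was also higher than GMP (0.62 ± 0.19, adjusted p = 0.0204), a call that ended without GMP replicate 3, MEP replicate 2 or MEP replicate 3 (adjusted p between 0.0510 and 0.0578), and with the 3'/5' ratio as a covariate (adjusted p = 0.0595). The brightest Bcl2l1 probe set, 1420888_at, averaged 8.80 ± 0.16 in L-GMP, 8.76 ± 0.09 in HSC, 8.80 ± 0.14 in MEP, 8.76 ± 0.07 in CMP and 8.66 ± 0.11 in GMP (SD), and no difference in it was called. Nor was any in 1426191_a_at, which averaged 7.76 ± 0.48 in L-GMP and between 7.31 and 7.67 in the normal groups. The 3 did not run together (r between -0.257 and 0.291), so a direction for Bcl2l1 rests on which probe set is read.

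Over all 5 groups at once, 15 of the 19 probe sets and 8 of the 9 genes were called by the F test (78.9%, against 62.3% of all probe sets), Bbc3 being the gene without a call. The rank of their F values had a median percentile of 63.3 among all probe sets, with Bid 1417045_at at 93.3 and Bcl2l1 1420888_at at 8.37. Among normal groups, HSC against GMP had 7 higher and 4 lower (57.9%, against 40.9% of all probe sets, 18.5% higher and 22.3% lower). Of these 7, 5 were probe sets of Mcl1 alone. With 1 probe set per gene, 5 of 9 were called there, 3 of them higher, beside 3468 of all 8431 genes. HSC against MEP had 5 higher, again all of Mcl1, and 2 lower (36.8%, against 32.7%, 16.9% higher and 15.8% lower). CMP against GMP had 2 higher and 2 lower (21.1%, against 16.2%, 8.06% higher and 8.17% lower). MEP against GMP had 1 higher and 3 lower (21.1%, against 26.3%, 11.1% higher and 15.2% lower). HSC against CMP had 1 higher and 1 lower (10.5%, against 12.8%, 5.58% higher and 7.21% lower), and so had MEP against CMP (10.5%, against 15.9%, 5.61% higher and 10.3% lower).

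By a rule of likeness, the 3 probe sets of other genes with the highest Pearson r over the 22 arrays were taken for each gene whose brightest tested probe set passed the F test. Bcl2l1 and Bbc3 are left out by this rule, Bcl2l1 because its brightest probe set 1420888_at did not pass, although 1420887_a_at did. Bid was most like Pcyt1a (0.982), an enzyme of phosphatidylcholine synthesis, Ppp2cb (0.973) and Tmem167 (0.971). Mcl1, here by 1448503_at alone, was most like Gjd4 (0.967), Klf6 (0.955) and Nr4a1 (0.949), the last 2 of them in the immediate early list. The other Mcl1 probe sets followed the immediate early mean less closely (r between 0.355 and 0.762). Bad was most like Cotl1 (0.955), Cd33 (0.945) and Hmces (0.939), and Pmaip1 most like Rapsn (0.950), Chd7 (0.949) and Jarid2 (0.945). For Bak1 the highest were Rnf26 (0.921), Ctsz (0.921) and Surf4 (0.919), for Bcl2l11 Mef2c (0.860), Cebpg (0.857) and Resf1 (0.842), and for Bcl2 Cnn3 (0.733), Ptger2 (0.732) and Rap1b (0.727). All these points share 5 groups and 1 amplification, and they say nothing of shared control.

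Other genes of the apoptosis machinery, each represented by its brightest probe set, were taken from 7 lists with 63 tested genes. The lists were written with earlier results of these data known, so their counts are descriptions only. In L-GMP against GMP, 11 of the 63 were higher and 8 lower (30.2%, against 33.2% of all genes). By direction, 14.3% of all probe sets were higher and 18.5% lower. Of 8 tested inhibitors of apoptosis 6 were higher and 0 lower, with a median log2 change of 0.49: Naip5 (1.09 ± 0.22), Naip2 (0.98 ± 0.16), Birc3 (0.67 ± 0.16), which encodes cIAP2, and Naip6 (0.65 ± 0.17). The Naip genes are near-identical neighbours whose probe sets may bind more than 1 of them, and they are known as sensors of bacterial proteins. Of 9 genes of the apoptosome and of mitochondrial release 1 was higher, Apaf1 (0.46 ± 0.14), the scaffold of the apoptosome, and 5 were lower (median -0.31), among them Endog (-0.68 ± 0.13), Aifm1 (-0.58 ± 0.12) and Htra2 (-0.57 ± 0.12), proteins of the mitochondrial intermembrane space.

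No caspase of 6 and no other BCL2 family gene of 8 was called in L-GMP against GMP. Of 10 genes of p53 and its targets 2 were higher, Trp53inp1 (1.08 ± 0.20) and Sesn2 (0.44 ± 0.15), and of 6 death receptor genes 2 were higher, Fasl (0.58 ± 0.21) and Fadd (0.28 ± 0.10). Of 16 regulators of BH3-only genes and of Mcl1 0 were higher and 3 lower: Usp9x (-0.68 ± 0.14), an enzyme known to take ubiquitin off MCL1, Dynll2 (-0.33 ± 0.12), a dynein light chain, and Stat5a (-0.25 ± 0.09).

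Against HSC, 15 of the 63 genes were higher in L-GMP and 17 lower (50.8%, against 47.0% of all genes). By direction, 23.5% of all probe sets were higher and 23.8% lower. Apaf1 was higher by 1.42 ± 0.13 and Cycs, which encodes cytochrome c, by 0.63 ± 0.09, and 5 of 9 genes of this list were higher and 2 lower. Of 6 caspases 0 were higher and 4 lower, with -1.35 ± 0.09 for Casp6, -0.86 ± 0.18 for Casp4 and -0.39 ± 0.11 for Casp2. Casp12 was the 4th, and all its L-GMP values were at the floor. Foxo3, a transcription factor known to switch on Bcl2l11, changed by -1.93 ± 0.14, and Ddit3, a stress factor, by -1.33 ± 0.17, within 3 higher and 7 lower of 16 regulators. Of the p53 list 3 were lower, Btg2 (-1.89 ± 0.56), Trp53inp1 (-1.34 ± 0.18) and Sesn1 (-1.23 ± 0.16), and 0 higher. Naip2 was higher by 2.47 ± 0.15 against HSC and 2.45 ± 0.16 against CMP, and by 2.07 ± 0.17 against MEP.

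In HSC against GMP, 19 of the 63 genes were higher in HSC and 14 lower (52.4%, against 41.0% of all genes). By direction, 18.5% of all probe sets were higher in HSC and 22.3% lower. Caspases were 4 higher and 0 lower of 6, and the apoptosome list 0 higher and 6 lower of 9, with Endog at -1.24 ± 0.13 and Apaf1 at -0.96 ± 0.14. Foxo3 was higher in HSC by 1.59 ± 0.16 and Trib3 by 1.24 ± 0.16.

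The transduced experiment asked whether MLL-AF9 alters these genes in GMP. None of the 19 probe sets was called by limma in MLL-AF9 against GFP (background 0.00950%, 0% higher and 0.00950% lower), and 1 reached 0.05 before adjustment. With the replicate number as a block 0 were called as well (background 1.36%, 0.181% higher and 1.18% lower), with 8 under 0.05 before adjustment and a smallest adjusted p of 0.160. In 4 of the 19 the groups did not overlap (17.2% of all probe sets), 3 lower, all of Bcl2l11 (8.59% of all), and 1 higher, of Bcl2l1 (8.64% of all).

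Bcl2l11 by 1456005_a_at read 10.50, 10.26 and 10.53 in MLL-AF9 arrays and 11.54, 10.75 and 10.64 in GFP arrays. By 1435448_at it read 8.54, 8.56 and 8.84 in MLL-AF9 and 9.76, 8.95 and 8.90 in GFP, and by 1435449_at 8.21, 7.75 and 8.10 in MLL-AF9 and 9.38, 8.44 and 8.24 in GFP. All MLL-AF9 arrays lay below all GFP arrays in each, and GFP replicate 1 stood far above the other 2 GFP arrays in each. The log2 changes were -0.55 ± 0.25, -0.56 ± 0.25 and -0.67 ± 0.31 (SE), with adjusted p of 0.530, 0.530 and 0.531. With the replicate block the adjusted p were 0.211, 0.256 and 0.174. Another Bcl2l11 probe set, 1456006_at, was below the filter and untested, though no array was at the floor. It went the other way, with 7.77 ± 0.42 in MLL-AF9 and 7.42 ± 0.48 in GFP (SD).

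Bcl2l1 by 1426191_a_at read 8.65, 8.53 and 8.37 in MLL-AF9 and 8.33, 8.16 and 8.13 in GFP, a log2 change of 0.31 ± 0.13 with an adjusted p of 0.516. Its arrays in MLL-AF9 lay above those in GFP, but the brighter 1420888_at showed 10.45, 10.19 and 10.27 in MLL-AF9 and 10.49, 10.16 and 10.16 in GFP, with overlap. Pmaip1 read 7.56, 8.48 and 8.20 in MLL-AF9 and 8.17, 8.09 and 8.62 in GFP (-0.22 ± 0.26, adjusted p = 0.827), so the groups overlapped.

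Mcl1 by 1416880_at read 11.29, 11.00 and 11.00 in MLL-AF9 and 11.95, 11.35 and 11.26 in GFP, and its 6 probe sets had log2 changes between -0.42 and -0.20 with adjusted p between 0.548 and 0.816. Within each replicate number MLL-AF9 was below GFP by 1416880_at, and the groups overlapped. Bid, Bad, Bak1 and Bbc3 had log2 changes between -0.15 and 0.25, none called. Bcl2, below the filter, read 7.25, 7.92 and 7.61 in MLL-AF9 and 6.40, 7.31 and 7.10 in GFP, untested.

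Beside these values, the 12 immediate early genes averaged 7.82 to 8.46 in MLL-AF9 and 8.61 to 9.37 in GFP, with the highest value in GFP replicate 1. All 8 genes of the monocyte and macrophage list were above the floor on some array, and their summed level was 11823 to 21908 in MLL-AF9 and 27242 to 41350 in GFP. The part of either in the values of Bcl2l11 and Mcl1 was not tested. Of 61 other apoptosis genes tested here 0 were called (0.0138% of all genes).

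**Figure D4:**
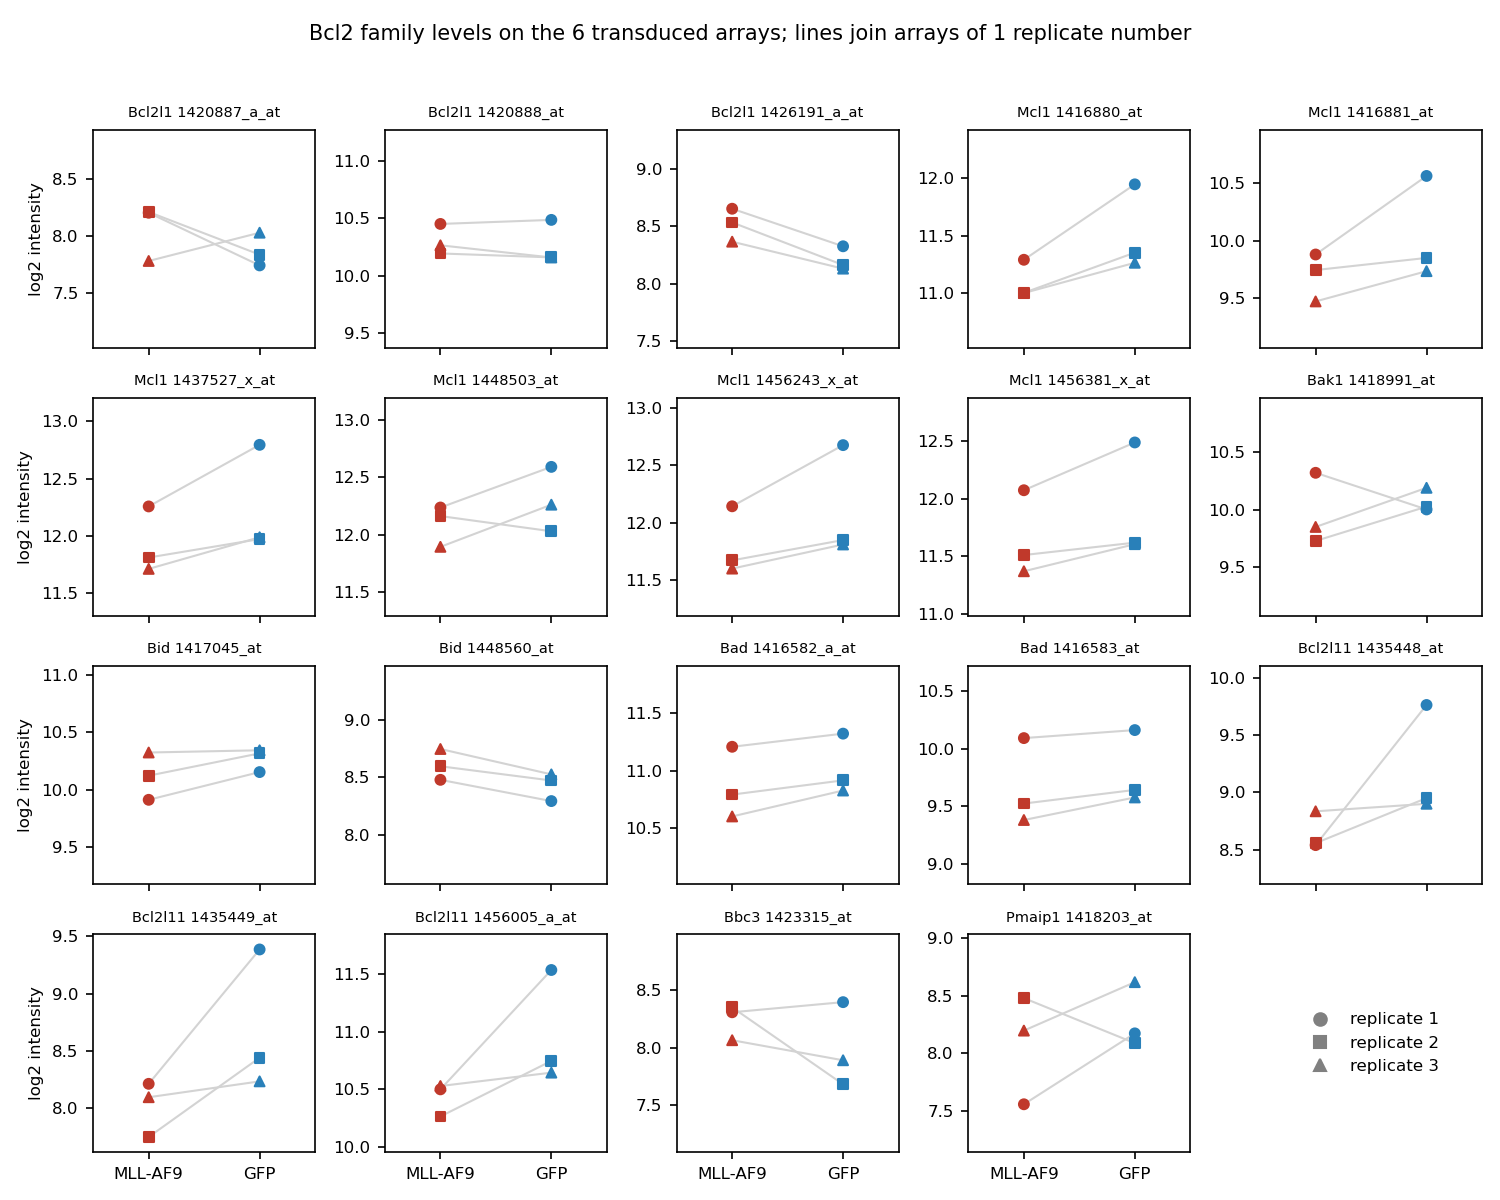
Log2 intensity of the 19 tested BCL2 family probe sets on the 3 MLL-AF9 and 3 GFP arrays, with lines joining arrays of the same replicate number and every panel spanning the same number of log2 units. The 3 Bcl2l11 panels show MLL-AF9 below GFP with GFP replicate 1 far above, and the Bcl2l1 1426191_a_at panel shows MLL-AF9 above GFP.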

How the data were processed

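The authors deposited 1 linear intensity per probe set and array, from MAS5 per the submitters' processing notes, with no version or scaling target stated. Arrays held 187 to 413 values at or below 0, whose origin is not given in the sources used here, and array medians were 90.8 to 116 in the sorted and 247 to 267 in the transduced experiment. The number of arrays per group limits the precision. Within each experiment arrays were scaled to a common mean after trimming 2% at each end (factors 0.923 to 1.12), values under the 25th percentile were raised to it, and log2 was taken. Scaling removes changes in total RNA per cell. Of 22690 probe sets 64 were controls, 691 named several genes and 1555 none, and these were not tested.

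Groups were compared with the 2-sided moderated tests of limma 3.58.1 under R 4.3.3: 22 sorted arrays in 1 fit with 10 contrasts and an F test, and 6 transduced arrays apart, with Benjamini-Hochberg adjustment over all tested probe sets (12233 and 10523) and a threshold of 0.05. The code was tested on simulated data. Errors are SE on changes and SD on levels. Deviations from group means of same-numbered arrays had r above 0.1 in 3 of 3 transduced pairs (0.419 to 0.642, across probe sets). The same held in 20 of 37 sorted pairs. The numbers come from the labels. Differently numbered arrays gave r of 0.516 for GFP replicate 3 with MLL-AF9 replicate 2, so these values do not establish a pairing by number. Main results of both experiments used no pairing, and the replicate number as a block was an alternative in each. The 10 genes were named whatever their values, with the brightest tested probe set standing for a gene where 1 was needed, up to 4 called genes of largest change per pathway list, and the 3 most alike probe sets per member. Members and lists were chosen with earlier results of these data known. Alternatives were quantile or median scaling, a floor at the 10th or 50th percentile, no filter, 1 probe set per gene, the replicate block, the 3'/5' ratio as a covariate, fits of the 2 groups alone, and leaving out arrays. That 3'/5' log2 ratio, a measure of RNA length, averaged 2.85 ± 0.08 in L-GMP, 2.92 to 3.10 in the normal groups, 1.47 ± 0.24 in MLL-AF9 and 1.51 ± 0.32 in GFP (SD).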

Additional observations from a re-analysis of the deposited data

Results flagged for a closer look

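Within groups of 4 to 6 arrays, 5 values of 76 tested group and probe set combinations lay so far from the rest of their group that Dixon's test picked them out, and chance alone picks about 1 in 20. Pmaip1 read 9.22 in L-GMP replicate 6, against 7.66 to 7.92 in the other L-GMP arrays. Pmaip1 also read 6.18 in CMP replicate 4, where the other CMP arrays were at the floor of 5.27. Those 3 values are tied by the floor, so any value above it would have been picked out, and this one carries no weight as a test. Bcl2 read 7.08 in CMP replicate 4, against 6.86 to 6.90 in the others. Bak1 read 7.07 in HSC replicate 5, against 5.83 to 6.17 in the others. Bbc3 read 6.66 in CMP replicate 1, against 7.37 to 7.49 in the others, and CMP replicate 1 is also the array of that group with the low immediate early mean of 6.71.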

How the results depend on the processing

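Of 209 results for a probe set in a comparison 63 were called, 48 of these kept their call under each of the 9 alternatives that keep every probe set and 45 also without any single array, and 0 changed direction. The 10th, 1 probe set per gene, gives no value for the other probe sets of a gene. The 3'/5' covariate ended 5 calls: the 4 given with Bcl2l11, Bbc3 and Bcl2l1 and that of Mcl1 1416880_at in CMP against GMP (adjusted p = 0.0686). Counts that moved by over 1.5 times were HSC against CMP with quantile scaling (4, main 2) and with the replicate block (4), CMP against GMP with no filter (2, main 4), and HSC against MEP with only those 2 groups fitted (4, main 7). Calls over all probe sets were 1679, 1381, 2003 and 3219 in this order. The main fit had 1565 for HSC against CMP, 1985 for CMP against GMP and 3996 for HSC against MEP. Without replicate 1 of HSC, CMP and GMP together, the count was 12 for L-GMP against CMP (main 7) and 5 for HSC against CMP. Over all 12115 probe sets then tested, 4275 and 1144 were called. With 1 probe set per gene, 9 in place of 19 were tested, so counts were lower by construction: 5 for L-GMP against HSC, 5 for L-GMP against MEP, 1 for HSC against CMP, 5 for HSC against GMP, 1 for HSC against MEP, 1 for MEP against CMP and 7 for the F test. Of all 8431 genes so tested, 3977, 3804, 1130, 3468, 2769, 1434 and 5268 were called, in the same order. The cause of the other moves was not tested. Leaving out 1 array gave 4 to 7 for L-GMP against GMP (over all probe sets 3303 to 4222). It gave 11 to 13 for L-GMP against HSC (all 5361 to 5983) and 7 to 9 for L-GMP against CMP (all 4262 to 4966). For L-GMP against MEP it gave 7 to 9 (all 4835 to 5484). It gave 1 to 8 for HSC against CMP (8 without HSC replicate 1, 4 without MEP replicate 3, and 1 without HSC replicate 2 or 4 or CMP replicate 1 or 4), 9 to 12 for HSC against GMP, 2 to 8 for HSC against MEP (2 without MEP replicate 3), 1 to 5 for CMP against GMP (1 without GMP replicate 4, 2 without CMP replicate 2 or 3 or GMP replicate 2), 2 to 5 for MEP against GMP (2 without MEP replicate 2), 2 for MEP against CMP, 15 to 17 for the F test and 0 for MLL-AF9 against GFP. Over all probe sets these ranges were 939 to 1781 for HSC against CMP and 4298 to 5188 for HSC against GMP. They were 2789 to 4066 for HSC against MEP and 1510 to 2145 for CMP against GMP. For MEP against GMP the range was 2527 to 3284, for MEP against CMP 1326 to 1978 and for the F test 7262 to 7622. In the sorted experiment, besides the count of HSC against CMP, the block left every count within 1.5 times. In the transduced experiment the block changed no member's call and moved the calls over all probe sets to 143, where the fit without it had 1. Whether the numbers pair the arrays was not established in either experiment. The call of Bid 1448560_at between HSC and GMP (-0.47, adjusted p = 0.00993) was lost with the floor at the 50th percentile (adjusted p = 0.300), and that between HSC and MEP (-0.41, adjusted p = 0.0445) under that floor (0.413) and without any 1 of 11 arrays (up to 0.274). The call of Mcl1 1416880_at between HSC and CMP (0.73, adjusted p = 0.0262) was lost without HSC replicate 2, 4 or 5 or CMP replicate 1 or 4 (up to 0.102), and that between CMP and GMP (0.66, adjusted p = 0.0484) without any 1 of 14 arrays (up to 0.146). Values near the floor have no reliable order, which limits Pmaip1 and Bcl2 most.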
